A study of Rattus norvegicus with 18 samples.

Results

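Primary rat astrocytes treated with Aβ42 fibrils were compared directly with primary rat astrocytes treated with Aβ40 fibrils. The contrast rests on 6 libraries of the 18 in the series, 3 with Aβ42 fibrils and 3 with Aβ40 fibrils, chosen by the cell type and treatment in their labels. The other 12 libraries were 3 untreated astrocyte controls, which entered the fit and set the level against which each fibril is described, and 9 microglia libraries of the same design. All cells were wild-type cultures from the cortex of neonatal Sprague–Dawley rats, with the fibrils given at the same concentration for 24 h in serum-free medium; the controls received no fibrils. Each library is a culture of mixed-glia origin from which microglia and oligodendrocyte precursors were shaken off, and the labels do not say whether replicates came from separate animals or cultures, so the p-values measure the spread between these samples, which may be technical.

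Aβ40 and Aβ42 are cleavage products of the amyloid precursor protein that differ in length at the carboxyl end. Aβ42 is the main peptide of parenchymal plaques in Alzheimer's disease, and Aβ40 is prominent in amyloid of the vessel wall. Astrocytes exposed to inflammatory stimuli secrete cytokines, chemokines, prostaglandins, nitric oxide and matrix proteases, and lower part of their resting programme.

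The difference between the fibrils was small against the response to either of them. The root mean square distance between libraries, taken over the log2 values of all genes tested, averaged 0.343 between an Aβ42 and an Aβ40 library (range 0.281 to 0.449 over 9 pairs). It averaged 0.307 within the Aβ42 group and 0.287 within the Aβ40 group. From the control libraries the Aβ42 libraries lay at 1.21 and the Aβ40 libraries at 1.15. Among 11690 genes tested with edgeR's quasi-likelihood test on all 9 astrocyte libraries, 10 genes (0.0855%) differed between the fibrils with a threshold of 0.05 on the adjusted p-value. Aβ42 gave the higher level for 7 of them (0.0599%) and the lower level for 3 (0.0257%). Against control, 37% of the genes passed with Aβ42 and 33.3% with Aβ40. At an unadjusted p-value under 0.05 there were 737 genes, where 584.5 would be reached if no gene differed. With the 6 fibril libraries fitted alone, 265 of 11478 genes passed (2.31%), 129 higher and 136 lower with Aβ42, with a median fold of 1.54, and 40 of them reached 2-fold. All 10 genes were among these 265 and among the 141 (1.21%) that passed DESeq2's Wald test.

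These counts depended on single libraries. The common dispersion, edgeR's estimate of the squared relative spread between replicates, was 0.0281 with the controls and 0.00995 without them, and the controls differed among themselves by 0.649 on the distance scale used above. Without control replicate 2, 222 genes passed in place of 10, without control replicate 3 it was 19, and without control replicate 1 it was 10. In control replicate 2, 34.2% of reads were outside genes or not assigned to a single gene. In the other astrocyte libraries this share was 26.0% to 28.9%. Without Aβ42 replicates 1, 2 and 3 the counts were 4, 0 and 0, and without Aβ40 replicates 1, 2 and 3 they were 1, 0 and 0, with 472 to 661 genes at an unadjusted p-value under 0.05 by edgeR and 32 to 71 genes by DESeq2. In the fit of the 6 alone, leaving out the Aβ42 replicates in the same order gave 172, 11 and 141 genes, and leaving out the Aβ40 replicates gave 220, 137 and 21. The log2 difference of each of the 10 genes kept its sign in every one of these fits. In all 10 the Aβ42 and Aβ40 libraries did not overlap, so leaving out a library could hardly reverse a sign, and this is no measure of stability. Library depth was 3674040 to 13769000 counts on genes in controls, 8333010 to 14839600 with Aβ42 and 9574780 to 19013900 with Aβ40.

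Ptges, Csf3 and Lif, of prostaglandin synthesis and cytokine signalling, were among the 7 genes higher with Aβ42. Ptges, the inducible terminal synthase of prostaglandin E, was at 152, 158 and 148 CPM (the count of a gene relative to the scaled library size) in the Aβ42 libraries and at 64.6, 71.9 and 73.5 CPM in the Aβ40 libraries, against 0.278 to 0.492 CPM in controls. Every Aβ42 library was above every Aβ40 library, and the groups did not overlap in 18.9% of all genes tested. The log2 difference of Ptges was 1.12 (standard error 0.12, 95% interval 0.87 to 1.38, adjusted p = 0.0072). Csf3, which encodes granulocyte colony-stimulating factor, was at 63.2, 61.9 and 52.5 CPM with Aβ42 and at 28.7, 30.7 and 32.1 CPM with Aβ40, and its controls held 0, 0 and 1 counts. Its log2 difference was 0.96 (standard error 0.14, adjusted p = 0.0366). Lif, leukaemia inhibitory factor, a cytokine of the interleukin 6 family, was at 93.2, 83.6 and 98.5 CPM with Aβ42, at 45.2, 46.5 and 48.4 CPM with Aβ40 and at 4.43 to 5.74 CPM in controls, a log2 difference of 0.97 (standard error 0.13, adjusted p = 0.0208). In these bulk cultures, fewer expressing cells and less RNA per cell cannot be told apart.

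A protease and a neuropeptide precursor followed the same order of control, Aβ40 and Aβ42. Mmp3, or stromelysin, which degrades matrix proteins and activates other metalloproteinases, was at 26.2, 28.9 and 31.2 CPM with Aβ42 and at 12.5, 12.4 and 11.3 CPM with Aβ40, and at 0 to 0.239 CPM in controls. The log2 difference was 1.25 (standard error 0.15, 95% interval 0.91 to 1.59, adjusted p = 0.0208). Pnoc, the precursor of nociceptin, was at 84.8, 80.2 and 72.8 CPM with Aβ42 and at 34.9, 34.3 and 41.9 CPM with Aβ40, with controls at 11.2 to 15.6 CPM. Its log2 difference was 1.10 (standard error 0.15, adjusted p = 0.0277).

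Cd93 and Slco1c1 were also higher with Aβ42 but stood differently to the controls. Cd93, a transmembrane lectin-like receptor of endothelial and myeloid cells, was at 9.47, 12.4 and 12.1 CPM with Aβ42 and at 4.47, 3.21 and 4.45 CPM with Aβ40, with controls at 4.17 to 5.27 CPM. Its log2 difference between the fibrils was 1.495 (standard error 0.19, 95% interval 1.07 to 1.92, adjusted p = 0.0208). Against control, it was 1.23 with Aβ42 (adjusted p = 0.000792) and -0.26 with Aβ40 (adjusted p = 0.395), in comparisons that share the control libraries. Slco1c1, a transporter of thyroid hormone, was at 4.55 to 5.06 CPM in controls and lower with both fibrils, with 16, 13 and 14 counts in the Aβ42 libraries and 2, 2 and 3 counts in the Aβ40 libraries. The summed counts per depth were 8.13 times higher with Aβ42 (95% exact interval 3.62 to 21.4, which covers counting error only), and the fitted log2 difference was 2.95 (standard error 0.38, adjusted p = 0.0208). The summed level of 7 endothelial markers was 15.3 to 17.2 CPM with Aβ42 and at most 18.9 CPM with Aβ40, in ranges that overlapped. Cldn5 was at 0 in all 6 libraries. Of the 5 endothelial markers tested, 3 had a positive difference and 2 a negative one. Flt1 was at 3.6 to 4.87 CPM with Aβ42 and at 2.18 to 2.73 CPM with Aβ40. Vwf, the largest part of the sum, went the other way, at 6.57 to 7.35 CPM with Aβ42 and at 8.83 to 11.2 CPM with Aβ40. The summed level of 15 microglia markers was higher with Aβ42, at 171 to 190 CPM against 149 to 161 CPM with Aβ40, and 11 of the 15 had a positive difference. The part of such cells in the Cd93 result was not tested.

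Fmod and Chrdl1 were lower with Aβ42, and both were below control with each fibril. Fmod encodes fibromodulin, a small proteoglycan that binds collagen, and was at 35.1, 32.9 and 35.2 CPM with Aβ42, at 72.96, 88.6 and 86.7 CPM with Aβ40 and at 108, 112 and 115 CPM in controls. Its log2 difference between the fibrils was -1.27 (standard error 0.12, 95% interval -1.54 to -0.998, adjusted p = 0.0072). Against control it was -1.70 with Aβ42 and -0.43 with Aβ40. Chrdl1, a secreted antagonist of bone morphogenetic proteins, was at 40.03, 40.9 and 45.4 CPM with Aβ42 and at 78.3, 77.4 and 69.5 CPM with Aβ40, with controls at 191 to 225 CPM and a log2 difference of -0.83 (standard error 0.12, adjusted p = 0.0366).

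**Figure D1:**
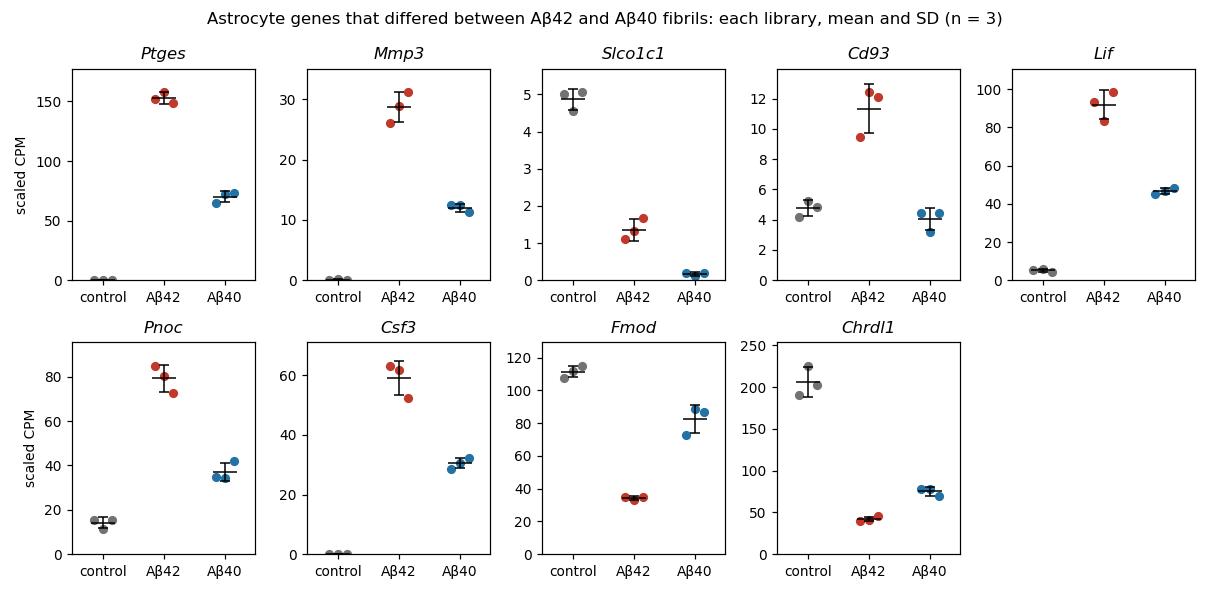
Scaled CPM (vertical axes, linear from 0, a separate scale in each panel) of 9 of the genes that differed between the fibrils, with a point for each astrocyte library, and the mean of 3 libraries as a horizontal line with SD bars. No Aβ42 library overlaps an Aβ40 library in any panel, as the genes were chosen by this difference. Cd93 is near the control level with Aβ40 alone, and Slco1c1 is lowest with Aβ40.

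In 8 of the 10 genes the Aβ42 value lay on the same side of control as the Aβ40 value and further from it, 5 above and 3 below. The same order held for most of the 265 genes of the 6 libraries. Of the 129 higher with Aβ42, 96 were above control with both fibrils and further with Aβ42, and 23 were below control and further with Aβ40. Of the 136 lower with Aβ42, 101 were below control and further with Aβ42, and 22 were above control and further with Aβ40. The remaining 23 lay on opposite sides of control. For a gene higher with Aβ42, lying further from control follows from lying above it, so these counts describe on which side of control the genes lay. Both values are set against the same control libraries, and no test was made of the split.

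To describe the fibril response without favouring either fibril, genes were chosen by the mean of both against control, in a contrast balanced over the fibrils. The mean passed the threshold for 40.5% of the genes tested. Among those at 5-fold or more, there were 342 raised genes (2.93%) and 343 lowered genes (2.93%). The Aβ42 minus Aβ40 difference was positive in 69.9% of the raised genes, with a median log2 difference of 0.19, and negative in 58.9% of the lowered genes, with a median of -0.16. Over all genes tested it was positive in 5841 of 11690, with a median of -2.49e-05. The 95% interval of the difference lay within 2-fold in either direction for 278 of the 342 raised genes (81.3%). The same held for 100 of the 343 lowered genes (29.2%) and for 89.1% of all genes tested. With a margin of 1.5-fold it was 115 and 16 genes (33.6% and 4.66%), against 57.6% of all genes tested. For the lowered genes the intervals were wider, with a median half-width of 0.84 on the log2 scale against 0.42 for the raised genes, and in most of the lowered genes the interval reached past 2-fold.

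**Figure D2:**
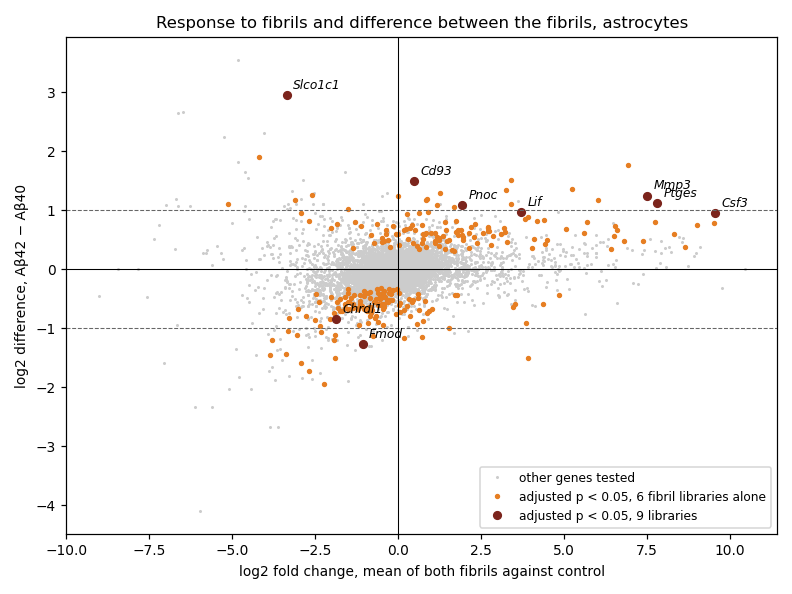
Log2 fold change of the mean of both fibrils against control (horizontal) and log2 difference of Aβ42 minus Aβ40 (vertical) for 11687 of the genes tested, with those that passed with 6 libraries in orange, 9 of those that passed with 9 libraries in dark red and dashed lines at 2-fold. Ptges, Mmp3 and Csf3 are at the far right with differences near 1, and Slco1c1 stands at the upper left with 2.95.

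The genes most raised by both fibrils varied in their difference between the fibrils, from -0.31 for Ccl19 to 0.96 for Csf3, described above. Pla2g2a, a secreted phospholipase, was at 16.3, 15.9 and 15.97 CPM with Aβ42 and at 15.4, 17.1 and 15.2 CPM with Aβ40, and its controls were at 0. The log2 difference was 0.01 (95% interval -0.31 to 0.33). Cxcl13, a chemokine that attracts B cells, differed by 0.05 (95% interval -0.34 to 0.44), Cxcl6, which attracts neutrophils, by 0.27 (95% interval -0.19 to 0.73) and Ccl20 by 0.37 (95% interval -0.08 to 0.82), none past the threshold in either fit. C3, the central complement component, was at 3000, 2982 and 2996 CPM with Aβ42 and at 3326, 3384 and 3502 CPM with Aβ40, a log2 difference of -0.19 (standard error 0.12, adjusted p = 1 with 9 libraries and 0.109 with 6). The groups of C3 did not overlap, with all Aβ40 libraries above all Aβ42 libraries. Lcn2, lipocalin, a general marker of reactive astrocytes, was at 2648 to 3004 CPM with Aβ42 and at 2134 to 2330 CPM with Aβ40, a log2 difference of 0.34 (adjusted p = 0.982 with 9 libraries and 0.0429 with 6). Orm1, an acute-phase protein of plasma, was at 192, 179 and 177 CPM with Aβ42 and at 93.6, 106 and 118 CPM with Aβ40, a log2 difference of 0.78 (adjusted p = 0.135 with 9 libraries and 0.00652 with 6).

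Nitric oxide and arginine genes were among those that passed with the 6 libraries but not with the 9. Nos2, the inducible nitric oxide synthase, was at 573, 563 and 526 CPM with Aβ42 and at 316, 341 and 328 CPM with Aβ40, with controls at 0.422 to 1.91 CPM. All Aβ42 libraries were above all Aβ40 libraries, and the log2 difference was 0.76 (adjusted p = 0.205 with 9 libraries, 0.00221 with 6, and 1.2e-07 by DESeq2). Ass1, argininosuccinate synthase, which regenerates the arginine that nitric oxide synthase uses, was at 506, 512 and 493 CPM with Aβ42 and at 312, 320 and 327 CPM with Aβ40, a log2 difference of 0.66 (adjusted p = 0.111 with 9 libraries and 0.00264 with 6). The other genes of the 12 tested in this list did not pass in either fit or by DESeq2. Of all genes, 1.12% were higher with Aβ42 in the 6 libraries.

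**Figure D3:**
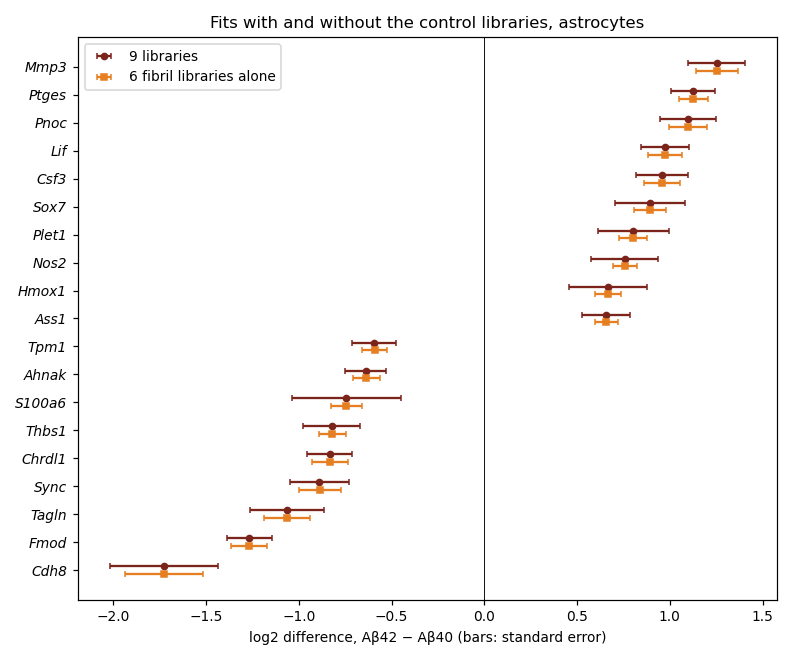
Log2 difference of Aβ42 minus Aβ40 (horizontal) with its standard error for 19 of the 20 genes chosen from the 6-library fit, from the fit of all 9 astrocyte libraries in dark red and of the 6 fibril libraries in orange. The differences are nearly equal in both fits and the errors are shorter without the controls, most of all for S100a6, Hmox1 and Nos2.

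Other enzymes of eicosanoid synthesis differed with Ptges. In this list 15 genes were tested with 9 libraries and 14 with 6. With the 6 libraries 4 passed, all higher with Aβ42, where 1.12% of all genes did. Ptgs2, the inducible cyclooxygenase that makes the substrate of Ptges, was at 24.2, 23.96 and 24.6 CPM with Aβ42 and at 18.2, 12.04 and 15.1 CPM with Aβ40, a log2 difference of 0.69 (adjusted p = 0.26 with 9 libraries and 0.0464 with 6). Pla2g4a, the cytosolic phospholipase that frees arachidonic acid, differed by 0.73 (adjusted p = 0.338 and 0.0146). It was at 0.22 against control with Aβ42 (adjusted p = 0.48) and at -0.51 with Aβ40 (adjusted p = 0.104). Tbxas1, thromboxane synthase, differed by 0.78 (adjusted p = 0.208 and 0.0154) and was below control with both fibrils. Hpgd, which breaks prostaglandins down, was at 2.33, 2.02 and 1.92 CPM with Aβ42 and at 3.74, 3.21 and 3.72 CPM with Aβ40, and did not pass (log2 difference -0.74, adjusted p = 0.416 and 0.088).

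Of 28 cytokines and colony-stimulating factors tested, Csf3 and Lif passed with 9 libraries, where 0.0599% of all genes were higher with Aβ42. With 6 libraries, where 27 were tested, 4 more passed, all higher, where 1.12% of all genes were. Csf2, granulocyte-macrophage colony-stimulating factor, was at 18.9, 13.95 and 14.7 CPM with Aβ42 and at 7.38, 10.4 and 9.36 CPM with Aβ40 (log2 difference 0.80, adjusted p = 0.0369 with 6 libraries). Il1rn, the antagonist of the interleukin 1 receptor, was at 193, 206 and 209 CPM with Aβ42 and at 142, 136 and 132 CPM with Aβ40 (0.57, adjusted p = 0.00887), and Tnf was at 15.97 to 19.1 and at 9.04 to 12.8 CPM (0.69, adjusted p = 0.0426). Il11 was at 14.6, 12.6 and 12.1 CPM with Aβ42 and at 7.27, 6.9 and 6.24 CPM with Aβ40, where controls were at 3.87 to 9.33 CPM (0.96, adjusted p = 0.00816). The list median was 0.24, and 13 of its genes had all Aβ42 libraries above all Aβ40 libraries against 9.13% of all genes, with 3 in the other direction against 9.75%. Il34, a ligand of the receptor for colony-stimulating factor 1, was the lowest member at -0.61 (adjusted p = 0.873 with 9 libraries and 0.0774 with 6).

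Among 25 chemokines, 23 had a positive difference and the median was 0.32, the highest of any list. With 6 libraries Cxcl2 and Cxcl16 passed as higher, where 1.12% of all genes did. With 9 libraries 0 passed by edgeR, with 7 higher at an unadjusted p-value under 0.05, where 349 of all 11690 genes were. Cxcl2, which attracts neutrophils, was at 86.9, 92.1 and 97.3 CPM with Aβ42 and at 65.9, 53.8 and 62.02 CPM with Aβ40 (log2 difference 0.61, adjusted p = 0.212 with 9 libraries and 0.0226 with 6). Cxcl16 was at 1275 to 1364 CPM with Aβ42 and at 952 to 979 CPM with Aβ40 (0.46, adjusted p = 0.397 and 0.00773). Ccl19, a ligand of the lymphocyte homing receptor CCR7, was the lowest at -0.31 (standard error 0.18). No test of the list as a whole was made.

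Matrix proteases included several of the larger positive differences. Of 25 proteases and inhibitors tested, 16 were positive and 9 negative. With the 6 libraries 6 passed, all higher with Aβ42, where 1.12% of all genes were, and Mmp3 passed with 9. Adamts5, which cleaves aggrecan, was the lowest at -0.47 (standard error 0.24). Mmp10, a second stromelysin, was at 2.68, 2.53 and 2.88 CPM with Aβ42 and at 0.727, 1.02 and 0.996 CPM with Aβ40, a log2 difference of 1.51 (adjusted p = 0.0713 with 9 libraries and 0.0118 with 6). Mmp13, a collagenase, was at 9.61, 10.7 and 10.4 CPM with Aβ42 and at 4.47, 4.55 and 4.52 CPM with Aβ40 (1.18, adjusted p = 0.0805 and 0.0043). The gelatinases followed with smaller differences. Mmp9 was at 119, 121 and 109 CPM with Aβ42 and at 79.5, 66.4 and 73.8 CPM with Aβ40 (0.67, adjusted p = 0.0857 and 0.0103), and Mmp2 differed by 0.48 (adjusted p = 0.305 and 0.0237). Adamts1, which cleaves proteoglycans, differed by 0.80 (adjusted p = 0.212 and 0.00652). The inhibitors Timp1, Timp2, Timp3 and Timp4 were at 0.20, -0.26, -0.13 and 0.10, none past the threshold.

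Mmp3, Mmp10 and Mmp13 lie in a cluster on rat chromosome 8, and their promoters are shown because the genes moved together and each holds a match to the AP-1 motif, TGACTCA or TGAGTCA on either strand, printed in capitals. Il11 and Traf1, an adaptor of tumour necrosis factor receptors that differed by 0.63 (adjusted p = 0.019 with 6 libraries), are given with them as matches elsewhere in the genome. The 250 bases before each start site come from RefSeq, build GRCr8, and are written in the direction of the gene.
Mmp3 (chr8:12925031-12925280, plus strand): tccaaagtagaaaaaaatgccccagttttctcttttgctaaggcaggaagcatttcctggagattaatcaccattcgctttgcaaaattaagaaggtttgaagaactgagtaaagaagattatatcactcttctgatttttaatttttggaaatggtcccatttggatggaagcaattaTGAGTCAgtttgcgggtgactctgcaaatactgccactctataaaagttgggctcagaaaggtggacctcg
Mmp10 (chr8:12974457-12974706, plus strand): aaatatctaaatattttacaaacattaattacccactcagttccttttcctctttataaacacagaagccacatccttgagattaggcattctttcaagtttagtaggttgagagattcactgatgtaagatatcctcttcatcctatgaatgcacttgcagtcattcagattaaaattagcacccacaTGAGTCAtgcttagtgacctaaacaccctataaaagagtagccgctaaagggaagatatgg
Mmp13 (chr8:12782579-12782828, plus strand): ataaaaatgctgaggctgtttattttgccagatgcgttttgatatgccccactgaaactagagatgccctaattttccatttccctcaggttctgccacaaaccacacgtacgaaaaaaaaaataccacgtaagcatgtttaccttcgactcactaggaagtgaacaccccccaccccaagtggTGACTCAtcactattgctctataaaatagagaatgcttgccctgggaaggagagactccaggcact
Il11 (chr1:78098372-78098621, plus strand): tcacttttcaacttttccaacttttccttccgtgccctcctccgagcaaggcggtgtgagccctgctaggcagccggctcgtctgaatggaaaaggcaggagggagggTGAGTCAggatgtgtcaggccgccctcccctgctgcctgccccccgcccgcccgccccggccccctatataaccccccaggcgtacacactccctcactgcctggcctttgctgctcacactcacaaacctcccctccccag
Traf1 (chr3:38635771-38636020, minus strand): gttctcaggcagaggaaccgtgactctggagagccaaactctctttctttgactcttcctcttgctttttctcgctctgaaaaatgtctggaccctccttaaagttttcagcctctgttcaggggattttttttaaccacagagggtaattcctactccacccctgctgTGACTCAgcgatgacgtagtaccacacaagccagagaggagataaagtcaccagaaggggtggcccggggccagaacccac

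The match begins 71, 61 and 66 bases before the start in Mmp3, Mmp10 and Mmp13, 142 bases before it in Il11 and 81 in Traf1. Of the 129 genes higher with Aβ42 in the 6 libraries, 84 had a promoter in the table and 13 of these held the motif (15.5%). Of the 136 lower genes, 96 had a promoter and 1 held it (1.04%), against 3.04% of 8789 promoters of genes tested and 3.97% of all 24206. A CArG box, the motif of serum response factor, was found in 3 of the 84 higher genes (3.57%) and 2 of the 96 lower genes (2.08%). Among genes tested it was 1.09%. An NF-κB motif was found in 5 of the higher (5.95%) and 6 of the lower genes (6.25%), against 4.52% of genes tested. The 13 promoters include the 3 neighbouring proteases, and a match in this window is a description of the letters and not a site of binding.

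Of 27 immediate early genes tested, 15 were positive and 12 negative, with a median of 0.08. Fosl1, Ier3, Dusp4 and Dusp5 passed with 6 libraries, all higher with Aβ42, where 1.12% of all genes were. By edgeR 0 passed with 9, and 5 were higher at an unadjusted p-value under 0.05, against 349 of all 11690 genes. Among the Fos and Jun genes, Fosl1 was at 136, 129 and 119 CPM with Aβ42 and at 90.3, 99.6 and 83.8 CPM with Aβ40 (log2 difference 0.49, adjusted p = 0.0284 with 6 libraries). Fosl2 also differed by 0.49 and did not pass (adjusted p = 0.106 with 6 libraries). Fos, Fosb, Jun, Junb and Jund were at -0.10, -0.03, -0.09, -0.09 and -0.08, and none of them passed in either fit. Dusp4 and Dusp5 encode phosphatases that switch off MAP kinases. Dusp4 was at 2.68, 2.83 and 2.28 CPM with Aβ42 and at 1.04, 1.12 and 1.26 CPM with Aβ40, where controls were at 0.557 to 1.2 CPM (log2 difference 1.18, adjusted p = 0.139 with 9 libraries and 0.0268 with 6). Dusp5 was at 14.1, 15.1 and 15.7 CPM with Aβ42 and at 10.3, 8.67 and 8.77 CPM with Aβ40, with controls at 8.62 to 10.3 CPM (0.70, adjusted p = 0.129 and 0.0228). For both genes the Aβ40 libraries overlapped the control libraries and the Aβ42 libraries did not.

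Growth factors moved in both directions. With 6 libraries 5 of 30 tested were higher with Aβ42 and 2 lower, against 1.12% and 1.18% of all genes. Ereg and Hbegf encode ligands of the epidermal growth factor receptor. Ereg was at 3.09, 2.53 and 1.92 CPM with Aβ42 and at 0.831, 0.588 and 0.863 CPM with Aβ40 with controls at 0 (log2 difference 1.77, adjusted p = 0.0925 with 9 libraries and 0.015 with 6), and Hbegf was at 165, 167 and 170 CPM with Aβ42 and at 122, 119 and 126 CPM with Aβ40 (0.45, adjusted p = 0.173 and 0.0155). Gdf15, a stress-induced member of the TGF-β family, differed by 0.85 (adjusted p = 0.45 and 0.00978) and Igfbp3 by 0.65 (adjusted p = 0.338 and 0.00978). In the other direction, Igfbp5 differed by -0.65 (adjusted p = 0.175 and 0.028) and Inhbb, a subunit of activins and inhibins, by -0.56 (adjusted p = 0.192 and 0.0357). Igfbp3 and Igfbp5, which both bind insulin-like growth factors, thus differed in opposite directions.

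The genes lower with Aβ42 included many of the actin cytoskeleton. A list of 27 actin-binding and contractile genes was written after several of them had been seen among the differences, so its count is a description. Of 24 tested, 22 were negative, with a median of -0.23. With 6 libraries 7 passed, all lower with Aβ42, where 1.18% of all genes were. By edgeR 0 passed with 9, and 9 were lower at an unadjusted p-value under 0.05, against 388 of all 11690 genes. DESeq2's threshold was passed by 6, all lower, against 61 of all 11690 genes. Tagln, transgelin, which cross-links actin filaments, was at 137, 131 and 110 CPM with Aβ42, at 221, 310 and 261 CPM with Aβ40 and at 692 to 1189 CPM in controls (log2 difference -1.06, adjusted p = 0.0918 with 9 libraries and 0.00652 with 6). Cnn1, calponin, was at 10.1, 8.9 and 8.77 CPM with Aβ42 and at 16.004, 22.8 and 20.98 CPM with Aβ40, with controls at 82.3 to 133 CPM (-1.11, adjusted p = 0.0918 and 0.00816). Lmod1, leiomodin, which nucleates actin filaments, was at 3.98, 4.45 and 3.003 CPM with Aβ42 and at 8.73, 14.3 and 11.2 CPM with Aβ40 (-1.58, adjusted p = 0.0713 and 0.00872). In these genes no Aβ42 library reached the lowest Aβ40 library. Myl9, a regulatory light chain of myosin, differed by -0.74 (adjusted p = 0.0713 and 0.00773), Tpm1, tropomyosin, by -0.59 (adjusted p = 0.111 and 0.00619), Acta2, smooth muscle actin, by -0.66 (adjusted p = 0.381 and 0.0499) and Ahnak, a large scaffold protein, by -0.64 (adjusted p = 0.0713 and 0.00637). Smooth muscle actin and transgelin also mark mural cells. The summed level of 9 fibroblast and mural cell markers was 192 to 243 CPM with Aβ42, 242 to 284 CPM with Aβ40 and 268 to 304 CPM in controls. Of the 7 tested, 3 were positive and 4 negative. Col3a1 and Acta2 passed with 6 libraries, both lower with Aβ42, where 1.18% of all genes were. Pdgfrb, a growth factor receptor of mural cells, was at 152, 145 and 124 CPM with Aβ42 and at 116, 153 and 130 CPM with Aβ40, groups that overlapped, and Rgs5 was at 0 in all 6. The part of such cells in the result was not tested.

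**Figure D4:**
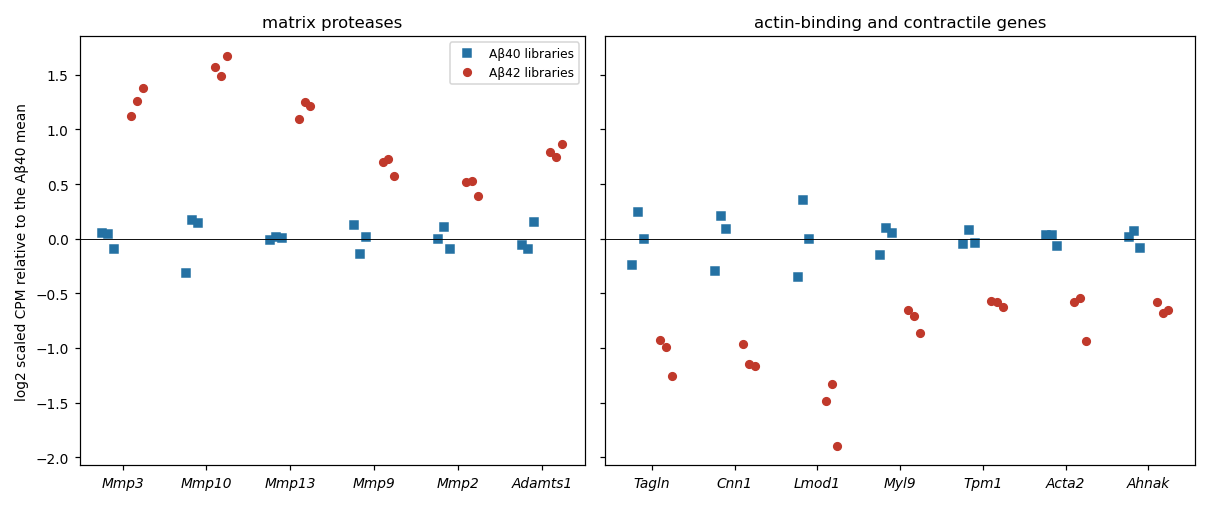
Log2 scaled CPM of each fibril library relative to the mean of the 3 Aβ40 libraries (vertical, log2 units) for the 6 proteases and the 7 actin-binding and contractile genes that passed with 6 libraries, with circles for Aβ42 and squares for Aβ40. All Aβ42 circles lie above the Aβ40 squares for the proteases and below them for the contractile genes, with the widest gaps for Mmp10 and Lmod1. The genes were drawn because they passed with these libraries, and the groups do not overlap in any gene that passed.

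Matrix proteins were lower with Aβ42 in part. Of 33 tested, 12 were positive and 21 negative, with a median of -0.12. Thbs1, Col3a1 and Cyr61 passed with 6 libraries, all lower, where 1.18% of all genes were. Thbs1, thrombospondin, an adhesive glycoprotein that astrocytes secrete, was at 117, 119 and 108 CPM with Aβ42, at 195, 212 and 202 CPM with Aβ40 and at 189 to 296 CPM in controls (log2 difference -0.82, adjusted p = 0.0904 with 9 libraries and 0.00252 with 6). Cyr61, a matricellular protein, differed by -0.41 (adjusted p = 0.503 and 0.028) and was at -0.42 against control with Aβ42 and at -0.01 with Aβ40. For Thbs1 and Cyr61 the Aβ40 libraries overlapped the control libraries. Other genes lower with Aβ42 among the 20 chosen from the 6 libraries were Cdh8, a cadherin, at 1.24, 1.42 and 0.841 CPM with Aβ42 and 3.74, 4.01 and 4.05 CPM with Aβ40 (-1.73, adjusted p = 0.0713 and 0.00652), and Sync, an intermediate filament protein, at -0.89 (adjusted p = 0.0805 and 0.00764). S100a6, a calcium-binding protein, was at 40.2 to 44.8 CPM with Aβ42 and at 69.4 to 75.4 CPM with Aβ40, with controls spread from 49.8 to 151 CPM (-0.75, adjusted p = 0.638 and 0.0065). Sox7, a transcription factor, and Plet1, a surface protein, were on the other side at 0.89 (adjusted p = 0.139 and 0.00265) and 0.80 (adjusted p = 0.205 and 0.00264), with controls at 5.49 to 11.5 CPM and 1.48 to 4.07 CPM. Both were at 156 CPM or more with Aβ42 and at 101 CPM or less with Aβ40.

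Antioxidant genes of the NRF2 programme were positive in 23 of 29, with a median of 0.16, and 4 passed with 6 libraries, all higher with Aβ42, where 1.12% of all genes were. Hmox1, heme oxygenase, was at 191, 193 and 181 CPM with Aβ42 and at 114, 119 and 123 CPM with Aβ40, with controls at 125, 64.4 and 126 CPM (log2 difference 0.67, adjusted p = 0.381 with 9 libraries and 0.0043 with 6). Nqo1, a quinone reductase, differed by 0.34 and Gstp1, a glutathione transferase, by 0.39 (adjusted p = 0.047 and 0.0426 with 6 libraries). Slc7a11, the cystine transporter, was the highest member at 0.80 and passed by DESeq2 alone (adjusted p = 0.257 with 9 libraries, 0.0566 with 6 and 0.0469 by DESeq2). Cholesterol synthesis genes were positive in 24 of 25 with a median of 0.18, and 0 passed by edgeR with 9 or 6 libraries or by DESeq2. At an unadjusted p-value under 0.05, 3 were higher in edgeR's fit of 9, where 349 of all 11690 genes were. Plin2, which coats lipid droplets, was at 193, 198 and 204 CPM with Aβ42 and at 135, 132 and 147 CPM with Aβ40 (0.53, adjusted p = 0.202 and 0.0116).

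**Figure D5:**
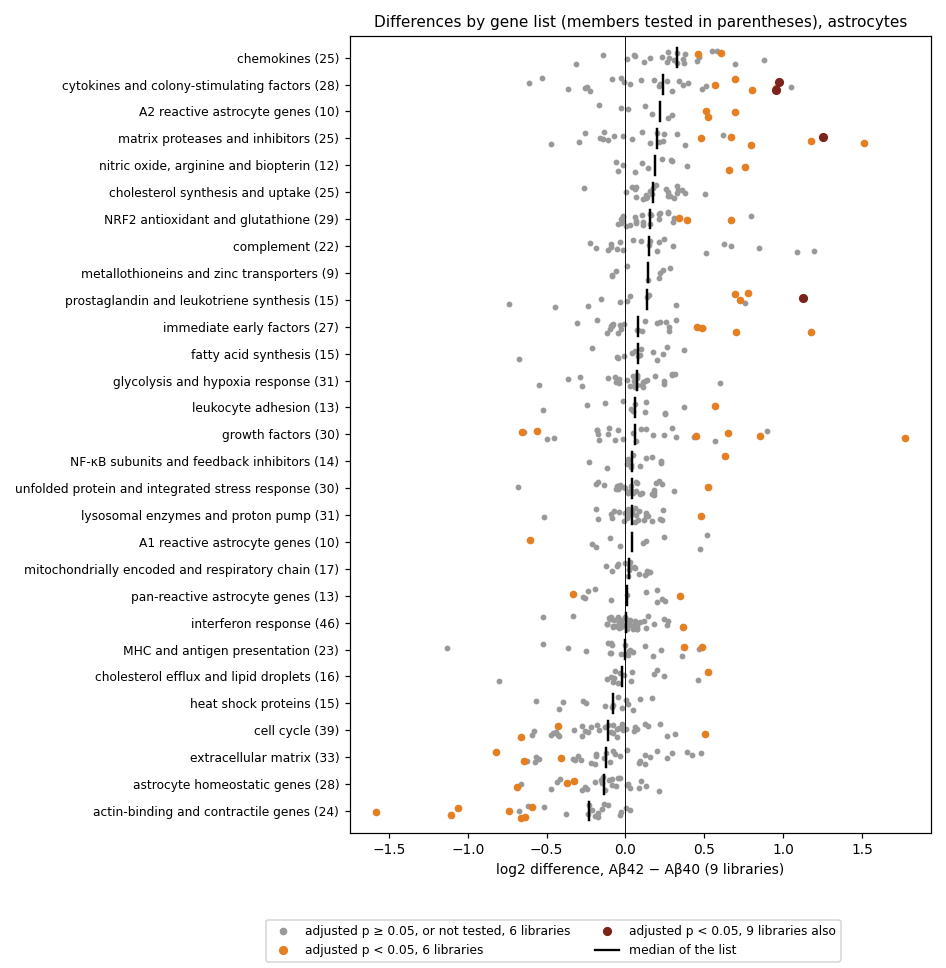
Log2 difference of Aβ42 minus Aβ40 (horizontal) of the tested members of the gene lists (rows, ordered by the median, number tested in parentheses), with orange for genes that passed with 6 libraries, dark red for those that passed with 9 and a black bar at the median. Chemokines, at a median of 0.32, are at the top, actin-binding and contractile genes, at -0.23, are at the bottom, and only 4 members, Lif, Csf3, Mmp3 and Ptges, are dark red.

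Cell cycle and homeostatic astrocyte genes had negative medians. Of 39 cell cycle genes 29 were negative, with a median of -0.11. Aurkb and Prc1, which act in chromosome segregation and cell division, were lower with Aβ42 in the 6 libraries, where 1.18% of all genes were, and Ccnd1, the cyclin of G1, was higher. Aurkb was at 71.5, 58.8 and 59.2 CPM with Aβ42 and at 94.2, 109 and 97.02 CPM with Aβ40, below controls at 193 to 252 CPM (log2 difference -0.66, adjusted p = 0.139 with 9 libraries and 0.0134 with 6). Ccnd1 was at 484, 500 and 480 CPM with Aβ42 and at 347, 332 and 352 CPM with Aβ40, with controls at 486 to 549 CPM (0.51, adjusted p = 0.112 and 0.00764). Of 28 homeostatic astrocyte genes 21 were negative, and Fgfr3, S100b and Mlc1 passed with 6 libraries, all lower with Aβ42, where 1.18% of all genes were. Fgfr3, a fibroblast growth factor receptor of astrocytes, was at 76.001, 70.2 and 56.4 CPM with Aβ42 and at 101, 113 and 113 CPM with Aβ40 (-0.69, adjusted p = 0.367 and 0.0155). S100b, a calcium-binding protein, and Mlc1, a membrane protein of astrocyte endfeet, differed by -0.33 and -0.37 (adjusted p = 0.028 and 0.0275 with 6 libraries).

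Lists of reactive states were mixed. In the A1 list, named for astrocytes made reactive by inflammation, 5 of 10 genes were positive and 5 negative. Ggta1, a galactosyltransferase, passed with 6 libraries as lower with Aβ42, where 1.18% of all genes were. Its log2 difference was -0.60 (adjusted p = 0.176 with 9 libraries and 0.0157 with 6). In the A2 list, named for astrocytes after ischaemia, 8 of 10 were positive, with a median of 0.22, and Ptx3, Ptgs2 and Cd14 passed with 6 libraries as higher, where 1.12% of all genes did. Ptx3, a pentraxin that opsonizes microbes, was at 253, 260 and 242 CPM with Aβ42 and at 168, 182 and 180 CPM with Aβ40 (0.51, adjusted p = 0.176 and 0.00887). Cd14, a co-receptor for lipopolysaccharide, was at 0.57 against control with Aβ42 and at 0.05 with Aβ40 (difference 0.52, adjusted p = 0.259 and 0.048). The interferon list had 23 positive and 23 negative of 46 tested and a median of 0.01. The interval of the difference was within 2-fold for 45 of them, against 89.1% of all genes. The 1 call of this list with 6 libraries was Gbp4, a guanylate-binding protein, where 2.31% of all genes passed. Gbp4 was at 181 to 188 CPM with Aβ42 and at 141 to 149 CPM with Aβ40 (0.36, adjusted p = 0.0345 with 6 libraries). Of the complement genes, 22 were tested with 9 libraries and 17 with 6. In either fit and by DESeq2 0 passed. At an unadjusted p-value under 0.05 in edgeR's fit of 9, 4 were higher, where 349 of all 11690 genes were. The microglia markers, given above for the fibrils, summed to 581 to 739 CPM in controls, and Cx3cr1 was at 3 counts or fewer in each of the 6 fibril libraries.

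Astrocyte markers were present at high levels in every library. The summed level of 8 astrocyte markers was 6859 to 7074 CPM with Aβ42 and 7474 to 7754 CPM with Aβ40, against 9281 to 11604 CPM in controls. Of the 8 markers 5 had a negative difference. S100b, given above, was the marker that passed with 6 libraries, as lower with Aβ42, where 1.18% of all genes were. Markers of the oligodendrocyte lineage summed to 2646 to 2892 CPM with Aβ42 and 2709 to 2921 CPM with Aβ40. Neuronal markers summed to 302 to 312 CPM with Aβ42 and 399 to 412 CPM with Aβ40, with 3 of 7 tested positive and 4 negative. Most of that gap was in 1 gene, Stmn2, a neuronal regulator of microtubules, at 200, 193 and 201 CPM with Aβ42 and at 299, 283 and 288 CPM with Aβ40 (log2 difference -0.55, adjusted p = 0.00764 with 6 libraries). How far the share of these cells bears on the differences was not tested.

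In microglia the same contrast gave 2198 of 10837 genes (20.3%) past the threshold, and the difference between the cell types in the Aβ42 minus Aβ40 contrast passed for 45 of 11581 genes (0.389%). Of the 10 astrocyte genes, 8 were tested in microglia and Mmp3 passed, as higher with Aβ42 at 0.70 (adjusted p = 0.0214), where its astrocyte difference was 1.25 and the interaction had an adjusted p of 0.231. Ptges was at 21.99, 30.9 and 48.1 CPM in Aβ42-treated microglia and at 26.5, 21.7 and 16.1 CPM in Aβ40-treated microglia, so that its groups overlapped there (0.68, adjusted p = 0.0906, interaction adjusted p = 0.442). The interaction passed for Fmod, Cd93 and Slco1c1 among the 10. Nos2 was at -0.73 in microglia (adjusted p = 0.164) and at 0.76 in astrocytes, with an interaction adjusted p of 0.121. Among the 20 genes chosen from the 6 astrocyte libraries, the interaction also passed for Plet1 (adjusted p = 0.0259) and Sox7 (adjusted p = 0.0316), which were higher with Aβ42 in astrocytes and at -0.67 (adjusted p = 0.033) and -0.48 (adjusted p = 0.0674) in microglia. Hmox1 was higher with Aβ42 in microglia at 0.98 (adjusted p = 0.0066), and its interaction did not pass (adjusted p = 0.496).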

How the data were processed

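RNA of primary rat astrocytes was sequenced from stranded poly(A) libraries. Per the labels and methods, the authors aligned reads to rn5 with STAR, and Salmon and DESeq2 are also named, with versions and the strand setting of the counting not given in the sources used here. The deposited tables hold whole-number counts of reads per gene for each library, not normalized, for 17307 astrocyte symbols. Reads outside genes or not assigned to a single gene, 26.0% to 34.2% of a library, were left out.

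Counts were scaled by TMM, filtered with filterByExpr and tested with edgeR 4.0.16 (glmQLFit, glmQLFTest) in R 4.3.3, with Benjamini-Hochberg adjustment over all genes tested, on 9 astrocyte libraries without covariates and on the 6 fibril libraries alone. CPM are counts relative to the TMM-scaled library size, and differences are Aβ42 minus Aβ40 on the fitted log2 scale. DESeq2 1.42.0 and limma-voom (limma 3.58.1) were alternatives. A count of 3 corresponds to 0.160 to 0.835 CPM. The interaction with cell type was fitted on 18 libraries. The procedure was tested on simulated counts, drawn independently for each gene. They hold no spread shared between genes, so that test does not cover the dependence on single libraries described above. Intervals are 95%. The labels do not say whether samples with the same replicate number were paired. The same-number correlations of within-group deviations between the fibrils were -0.53, 0.03 and -0.14. They were 0.36, -0.17 and -0.40 between Aβ42 and control, and -0.37, -0.39 and 0.19 between Aβ40 and control. With 3 libraries in a group, such values cannot decide whether the samples were paired.

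The members and gene lists were chosen with earlier results of these data known. The genes named are those that passed with 9 libraries, the 10 with the smallest p-value in each direction with 6 libraries (1.5-fold or more, no overlap), the 10 genes with the largest mean increase over both fibrils at 10 CPM or more, with Nos2, Cxcl2, C3 and Lcn2, which the study names, and the highest and lowest member of each list at 1 CPM or more and those that passed any of the tests. Not all of these are described, and 3 genes that passed with 6 libraries are not reported here or drawn, though they are counted. The added list, the within-group axis as a covariate and leaving out 3 libraries together were chosen after seeing the data. Promoter sequences are from RefSeq (GRCr8). They held 4 of the 10 genes that passed with 9 libraries, and no coordinates of the older build were used.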

Additional observations from a re-analysis of the deposited data

Results flagged for a closer look

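For 3 of the 10 genes that differed between the fibrils in astrocytes, the difference itself differed from that in microglia, by the interaction of cell type and fibril in edgeR's fit of 18 libraries. For Slco1c1 the log2 difference of Aβ42 minus Aβ40 was higher in astrocytes than in microglia by 3.18 (standard error 0.45, adjusted p = 0.00808). In microglia it was at 7.2, 8.36 and 7.01 CPM with Aβ42, at 10.9, 8.72 and 7.35 CPM with Aβ40 and at 20.3 to 28.01 CPM in controls, so both fibril groups were below control there and the log2 difference between them was -0.27 (adjusted p = 0.361), while the astrocyte value rests on 7 counts over the 3 Aβ40 libraries. For Cd93 the astrocyte difference was higher by 1.77 (standard error 0.26, adjusted p = 0.00808). In microglia, Cd93 was at 33.2, 22.6 and 32.7 CPM with Aβ42 and at 36.9, 33.8 and 35.9 CPM with Aβ40, all above controls at 4.12 to 5.6 CPM, whereas in astrocytes the Aβ40 libraries were at the control level. For Fmod the astrocyte difference was lower by -1.10 (standard error 0.19, adjusted p = 0.0151). In microglia, Fmod was at 21.2, 19.8 and 17.6 CPM with Aβ42 and at 18.8, 21.02 and 27.1 CPM with Aβ40, groups that overlapped, and below controls at 48.7 to 59.5 CPM. The number of the 10 genes past the threshold stayed at 2 or 3 in every alternative of the interaction run.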

How the results depend on the processing

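Scaling by DESeq2 size factors or library totals gave 10 genes each, limma-voom 14 and no filter 13, and of the 10 genes 10, 9, 10 and 10 were among them. Other settings moved the count. It was 141 with DESeq2's Wald test, with or without independent filtering, 265 with the 6 fibril libraries, 411 with DESeq2 on these 6, 6 with a minimum of 10 counts in every library (fewer genes tested), 737 without adjustment, and 0 to 222 when a replicate was left out. The fit of 6 gave 11 to 220 when a replicate was left out, from 265. The replicate number as a block gave 0 genes (532 at an unadjusted p-value under 0.05 by edgeR, 38 by DESeq2) and 17 with 6 libraries, the numbers mark no shared animal or batch in the labels, and not every sample correlated best with its own number. Of the spread within groups, 63.7% lay along 1 axis, with control replicate 2, Aβ42 replicate 3 and Aβ40 replicate 1 at the same end. With this axis as a covariate, taken from the same residuals, 491 genes passed with 9 libraries, and without these 3 libraries 117. In the fit of 6 the axis was computed anew from the residuals of those 6 libraries, and 2172 genes passed. The cause of the spread along these axes was not tested.

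The 378 of 685 responding genes whose interval lay within 2-fold became 225 with 10 counts in every library (fewer genes tested) and 131 at a margin of 1.5-fold. List medians kept their sign under TMM, size factors, library totals, the 6 libraries alone and without the 3 libraries, except in the A1, pan-reactive, interferon, antigen presentation and lipid efflux lists, which lay near 0. Differences near 0 changed sign when a replicate was left out, with ranges of -0.149 to 0.103 for Gclm, -0.152 to 0.141 for Mylk, -0.0703 to 0.216 for Cxcl13, -0.212 to 0.0336 for Qdpr, -0.0200 to 0.0665 for Pla2g2a and -0.194 to 0.0577 for Slc30a1. Hspa8, at -0.56, ranged from -0.884 to 0.00606, the last without Aβ40 replicate 2. Without the 3 libraries together, Pla2g2a became -0.00554 and Gclm 0.0756. Depth limits genes under a few CPM, where 3 counts in the smallest control library are 0.835 CPM.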

Other observations

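Lists not described above held few differences. In the lists of the unfolded protein response and of lysosomal enzymes, 1 of 30 and 1 of 31 genes passed with 6 libraries, near the 2.31% of all genes that did. In the list of leukocyte adhesion it was 1 of the 14 tested with 6 libraries. All of them were higher with Aβ42, where 1.12% of all genes were. Mthfd2, a mitochondrial enzyme of the folate cycle, differed by 0.52 (adjusted p = 0.212 with 9 libraries and 0.0331 with 6). Itga5, the alpha subunit of the fibronectin receptor, differed by 0.57 (adjusted p = 0.659 and 0.0428). Ctss, cathepsin S, a lysosomal protease of antigen-presenting cells, differed by 0.48 (adjusted p = 0.23 and 0.0357). Among 22 genes of antigen presentation tested with 6 libraries, RT1-Da and RT1-Db1 passed, both higher with Aβ42, where 1.12% of all genes were. They encode class II chains and are members of a multigene family whose reads may be shared. The list median was near 0. In the pan-reactive list of 13 genes, Lcn2 was higher and S1pr3, a sphingosine phosphate receptor, lower with Aβ42 in the 6 libraries. Over all genes 1.12% were higher and 1.18% lower. The log2 difference of S1pr3 was -0.33 (adjusted p = 0.0367 with 6 libraries). Another 5 lists were those of fatty acid synthesis, glycolysis and hypoxia, heat shock proteins, metallothioneins and the respiratory chain. In these 0 genes passed by edgeR with 9 or 6 libraries or by DESeq2. At an unadjusted p-value under 0.05 it was 3 of 15, 1 of 31, 2 of 15, 0 of 9 and 0 of 17. Over all genes tested it was 737 of 11690.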
